A study of Mus musculus with 3 samples.

Results

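Depolarization of cultured inhibitory neurons was followed here through 10 genes whose proteins hold back MAP kinase signalling: the phosphatase genes Dusp1, Dusp2, Dusp4, Dusp5, Dusp6 and Dusp14, the Sprouty genes Spry2 and Spry4, and the Sprouty-related genes Spred1 and Spred2. They were taken by gene symbol from the 25562 genes counted in each library, and each symbol matched 1 gene. The ERK branch of the MAP kinase cascade runs from receptor tyrosine kinases and calcium-regulated exchange factors through Ras, Raf and MEK to ERK, which enters the nucleus and drives transcription of early response genes. Dual-specificity phosphatases (Dusp proteins, also called MAP kinase phosphatases) remove both activating phosphates from ERK, JNK or p38, whereas Sprouty and Spred proteins act higher up, between the receptor and Raf. Many of these genes are themselves transcribed in response to the cascade they restrain, so their RNA is widely read as a trace of its recent activity.

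The 3 libraries, 1 per time, came from neurons of the medial ganglionic eminence (MGE), the embryonic source of many cortical inhibitory interneurons. The MGE was taken at embryonic day 14 from mice with a C57Bl/6 background, and the cells were grown for 10 days in culture. The titles of all 3 libraries mark them as WT (wild type), and the labels name no engineered allele. All cultures, the 0 h control included, were silenced overnight from day 9 with TTX, which blocks sodium channels, and AP-5, which blocks NMDA receptors, and KCl was then raised to 55 mM for 1 h or 6 h, or not at all (0 h). The labels do not say whether cells of several embryos or cultures were pooled, and with 1 library per time no difference between times has a replicate check, so each ratio below carries a counting interval only and no p-value.

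Sense exonic reads numbered 2189394, 2457167 and 2480579 in the 0, 1 and 6 h libraries, of 8996897, 8549377 and 8579378 mapped reads. Markers of MGE-derived interneurons were present for 11 of 11 genes, with summed levels of 4789, 4590 and 6258 RPM (exonic reads per 1000000 after scaling) at 0, 1 and 6 h. The sum hides unlike courses. Lhx6, Sox6, Dlx1 and Dlx2 had fewer reads at 6 h than at 0 h (Lhx6 838 at 0 h and 496 at 6 h). The others had more (Gad1 2787 and 5361). None of 6 markers of excitatory cortical neurons reached 20 reads in any library (4.91, 3.98 and 2.53 RPM), and the defining genes Slc17a7 and Slc17a6 had at most 1 read. All 6 markers of astrocytes and radial glia were also detected, at summed levels of 2044, 2189 and 2293 RPM, and 5 of 6 oligodendrocyte lineage markers summed to 141, 140 and 172. None of 5 microglial markers and 1 of 5 endothelial and mural markers reached 20 reads, and dividing-cell markers summed to 111, 114 and 105 RPM. The cultures therefore held glial RNA beside that of neurons, and the part of each cell type in the values below was not tested.

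Promoter sequences are printed for 3 phosphatase genes whose RNA was far higher in the 1 h than in the 0 h library, to show how different the sequence at their starts is. The windows run from 250 bases before to 50 bases after the start (RefSeq, GRCm38.p6), and such a window was held for 8 of the 10 genes. They lie on chr17:26508423-26508722 (minus strand) for Dusp1, chr19:53528895-53529194 (plus strand) for Dusp5 and chr10:99262981-99263280 (plus strand) for Dusp6. Capitals mark motif matches, searched on both strands.
Dusp1 promoter: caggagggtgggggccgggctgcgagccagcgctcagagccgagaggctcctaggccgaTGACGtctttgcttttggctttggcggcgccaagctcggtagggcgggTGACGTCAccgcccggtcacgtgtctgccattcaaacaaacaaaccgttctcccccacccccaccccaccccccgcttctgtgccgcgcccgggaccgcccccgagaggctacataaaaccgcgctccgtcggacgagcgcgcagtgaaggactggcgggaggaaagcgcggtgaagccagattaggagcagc
Dusp5 promoter: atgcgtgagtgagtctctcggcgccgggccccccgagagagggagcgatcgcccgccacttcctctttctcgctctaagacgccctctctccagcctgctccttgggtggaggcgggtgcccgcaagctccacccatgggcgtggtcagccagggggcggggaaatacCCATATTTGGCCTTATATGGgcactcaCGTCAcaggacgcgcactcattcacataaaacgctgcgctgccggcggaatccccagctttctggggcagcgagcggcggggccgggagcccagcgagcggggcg
Dusp6 promoter: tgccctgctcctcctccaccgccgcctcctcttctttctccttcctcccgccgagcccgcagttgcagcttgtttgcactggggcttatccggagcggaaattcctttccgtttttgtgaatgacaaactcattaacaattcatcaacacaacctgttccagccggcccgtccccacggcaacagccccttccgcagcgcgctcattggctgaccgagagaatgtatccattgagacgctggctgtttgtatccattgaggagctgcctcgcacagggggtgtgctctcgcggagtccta

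The Dusp1 window holds the full cyclic AMP response element (CRE) TGACGTCA, the sequence bound by CREB, which begins at position -143 from the gene's start, and a further copy of its core TGACG at position -191. A full CRE was found in 1.88% of the 27025 promoter windows and the core in 21.0%, and each full CRE contains the core on both strands. The Dusp5 window holds 2 adjoining CArG boxes, the motif of serum response factor, which begin at positions -82 and -72, and a CRE core at position -55. CArG boxes were found in 1.57% of windows. The Dusp6 window holds no match to the CRE, its core, AP-1 (TGANTCA), Egr (GCGNGGGCG), ETS (CCGGAA) or CArG motifs, and neither does that of Spred1. In the other windows the matches were an Egr motif and a CRE core for Dusp2, an ETS motif each for Dusp14 and Spry2, and a CRE core for Spred2. Egr, ETS and AP-1 motifs occur in 5.55%, 15.2% and 7.93% of all windows. These matches describe letters only, and the libraries measured no binding.

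The 3′ ends differ as well. AU-rich elements, of which TATTTAT is a common core, are known from short-lived mRNAs. In the 3′ untranslated region of Dusp1 the core occurs 3 times, on chr17:26506158-26506187, chr17:26505869-26505898 and chr17:26505673-26505702 (GRCm38, minus strand), with the core in capitals in the 30 bases printed for each.
Dusp1 site at 104 bases: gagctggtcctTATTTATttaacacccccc
Dusp1 site at 393 bases: gtttttaccttTATTTATttttgtgtaggt
Dusp1 site at 589 bases: gtatgtttgttTATTTATgatctgaagtaa
The distances are counted from the stop codon to the first base of the core. Within the first 500 bases after the stop Dusp1 has 2 cores, a number that 1.81% of 14182 genes reach, and 3 copies of the shorter ATTTA, which 8.83% of genes reach. Dusp2 and Spred1 also have 3 copies of ATTTA there. Over the whole region ATTTA was denser in Dusp2 (6.88 per kb) than in Dusp1 (5.80 per kb). The libraries did not measure mRNA stability. Each TATTTAT contains an ATTTA, and matches were sought on the sense strand. Dusp4, Dusp5, Dusp6 and Dusp14 have no TATTTAT anywhere in their 3′ untranslated regions of 1111, 1109, 1190 and 576 bases. Spry4 has 4 copies in 3559 bases, Spred1 3, Spry2 2, and Dusp2 and Spred2 1 each.

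Exonic reads of the 10 genes were compared between libraries after TMM scaling, which sets libraries to a common level over all genes. A gene passed the size rule with a ratio of 2 or more, or of 0.5 or less, if its exact 95% counting interval excluded 1 and at least 20 reads were counted in 1 of the 2 libraries. In the 1 h library 5 of the 10 genes passed as higher than at 0 h (Dusp1, Dusp4, Dusp5, Dusp6 and Spry4), 3 did not pass (Spry2, Spred1 and Spred2) and 2 had too few reads (Dusp2 and Dusp14). Over all genes 1.58% passed as higher and 1.43% as lower in this comparison, of 10093 genes with enough reads. At 6 h, again 5 of the 10 passed as higher than at 0 h (Dusp4, Dusp6, Dusp14, Spry2 and Spry4), 3 did not pass (Dusp1, Spred1 and Spred2), and Dusp2 and Dusp5 had too few reads, where 4.92% of 10095 genes passed as higher and 5.42% as lower. The median log2 ratio was 1.62 at 1 h and 1.70 at 6 h over the 8 genes with enough reads in each comparison, against 0.01 and 0.00 over all genes. Some genes met the minimum only in the library where they were high, such as Dusp5 (0 and 22 reads at 0 and 1 h) and Dusp14 (10 and 51 at 0 and 6 h). Spry4 did so too, with 9, 44 and 93 reads at 0, 1 and 6 h. Against 0 h such genes could pass only as higher. Dusp14 was left out at 1 h, with 11 reads, and Dusp5 at 6 h. The medians and the counts of 5 of the 10 genes therefore do not describe the 10 genes as a set. Both comparisons share the 0 h library. With libraries scaled to mapped reads in place of TMM, 85.1% of all genes passing at 1 h were higher, against 52.5% with TMM, and 64.5% against 47.6% at 6 h, while the same 5 of the 10 genes passed in each comparison.

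**Figure D1:**
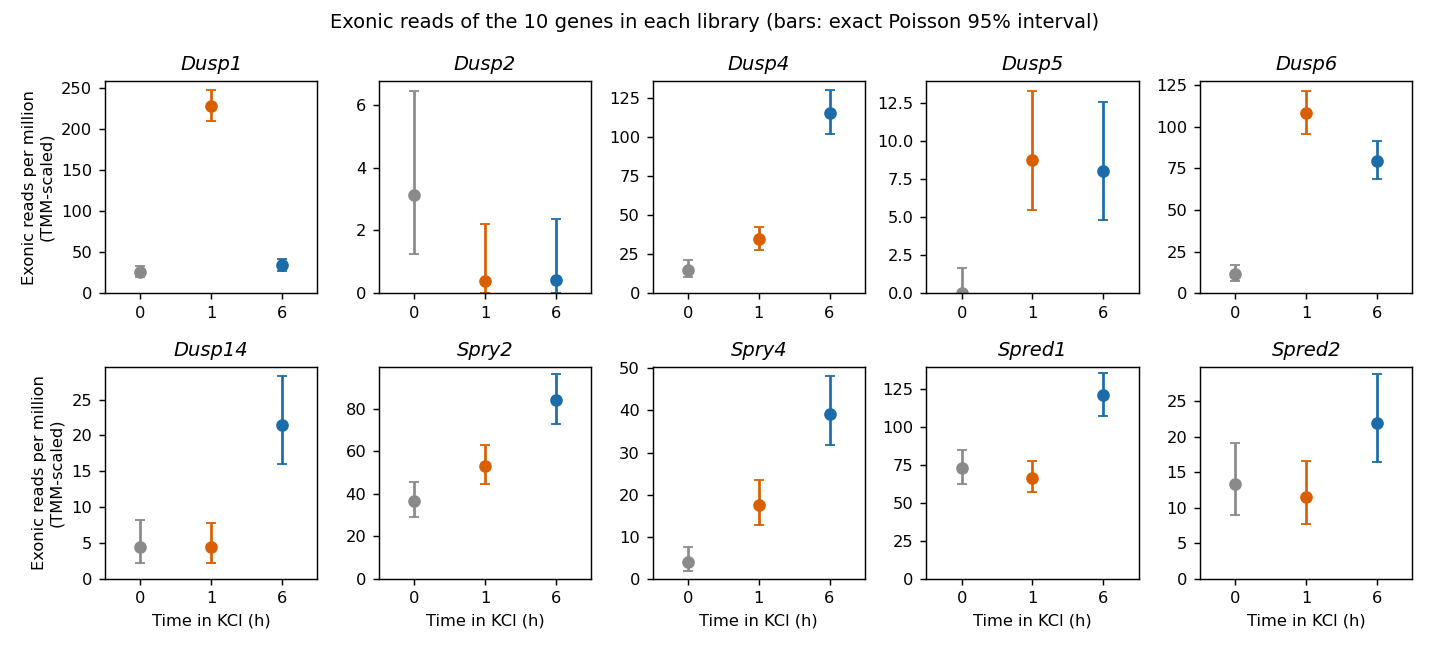
Exonic RPM (TMM-scaled, vertical axis, each panel on its own scale from 0) of the 10 genes at 0, 1 and 6 h in KCl, 1 library per time, with exact Poisson 95% intervals. Dusp1 stands at 228 RPM at 1 h and 33.8 at 6 h, Dusp4 and Spry4 are highest at 6 h, and Dusp14, Spred1 and Spred2 stand above their 0 h value at 6 h but not at 1 h.

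Among the nuclear, inducible phosphatases, Dusp1 (MKP-1), which acts on JNK, p38 and ERK, had the briefest course. Dusp1 lies on chr17:26642536-26645406 (minus strand; mm9, as for all gene positions that follow) and has 4 exons. It had 58, 573 and 80 exonic reads at 0, 1 and 6 h, or 25.9, 228 and 33.8 RPM. The 1 h library thus stood far above both others, which lay close together. The ratio was 8.81 (95% interval 6.72 to 11.8) for 1 h against 0 h, 20th highest of 10093 genes. The 6 h value was 6.75-fold lower than the 1 h value (5.34 to 8.65), and 1.30 times the 0 h value (0.919 to 1.86), an interval that includes 1. Dusp1 was the 1 gene of the 10 that passed as lower at 6 h than at 1 h, where 4.63% of 10137 genes did, while 3 passed as higher (Dusp4, Dusp14 and Spry4) against 4.17% of all genes. In bulk RNA, more cells with a transcript and more RNA per cell cannot be told apart.

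Dusp5, a nuclear phosphatase selective for ERK, lies on chr19:53603599-53616909 (plus strand), and 45.0% of its exonic length could take unique reads. It had 0, 22 and 19 exonic reads at 0, 1 and 6 h, and 0 reads at 0 h allow up to 1.34 RPM, set beside 8.76 at 1 h and 8.02 at 6 h. The 1 h library was at least 6.54-fold above 0 h, taking 3 reads as the upper limit of the 0 h count, and the exact 95% lower limit of the ratio was 4.89. At 6 h it was at least 5.99-fold above 0 h (lower limit 4.41), but with 19 reads it fell below the read minimum. The ratio of 6 h to 1 h was 0.916 (0.469 to 1.77), so any difference between these times was not detectable at this depth. Its intronic reads numbered 0, 10 and 9.

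Dusp4 (MKP-2), a nuclear phosphatase of ERK, JNK and p38, was highest at 6 h. It lies on chr8:35870664-35882948 (plus strand) and overlaps LOC675578 on the opposite strand, but antisense reads over its exons numbered at most 4 in any library. Dusp4 had 34, 87 and 274 exonic reads at 0, 1 and 6 h, or 15.2, 34.6 and 116 RPM. Each library stood above the one before it. The ratio was 2.28 (1.52 to 3.50) for 1 h against 0 h, 7.62 (5.32 to 11.2) for 6 h against 0 h and 3.34 (2.61 to 4.30) for 6 h against 1 h. For 6 h against 1 h, the interval of Dusp4 lies wholly above that of Dusp1, whose ratio was 0.148 (0.116 to 0.187).

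Dusp2 (PAC-1), the remaining nuclear inducible phosphatase, is best known from lymphocytes. It had 7, 1 and 1 exonic reads at 0, 1 and 6 h. These counts are too low for the size rule, and the ratio of 1 h to 0 h was 0.127 with an interval of 0.00283 to 0.992. Dusp2 is on chr2:127161895-127164113 (plus strand), and 97.7% of its exonic length could take unique reads.

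The cytoplasmic ERK phosphatase Dusp6 (MKP-3) shared the early rise of Dusp1 but not its return. Dusp6 lies on chr10:98725865-98730118 (plus strand). It had 26, 272 and 188 exonic reads at 0, 1 and 6 h, or 11.6, 108 and 79.3 RPM, so that both KCl libraries stood far above the 0 h library. The ratio was 9.33 (6.23 to 14.5) for 1 h against 0 h and 6.84 (4.52 to 10.7) for 6 h against 0 h, 19th of 10093 and 43rd of 10095 genes. The 6 h value was 0.733 times the 1 h value (0.605 to 0.886), which did not pass the size rule and whose interval lies above that of Dusp1.

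Dusp14 (MKP-6), a small atypical phosphatase that lacks the kinase-docking domain of the others, was high at 6 h alone. It lies on chr11:83861547-83881859 (minus strand). It had 10, 11 and 51 exonic reads at 0, 1 and 6 h, or 4.46, 4.38 and 21.5 RPM. The 6 h library was 4.82 times the 0 h library (2.42 to 10.7) and 4.92 times the 1 h library (2.53 to 10.5). The ratio of 1 h to 0 h was 0.981 with an interval of 0.378 to 2.58, from counts below the read minimum.

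**Figure D2:**
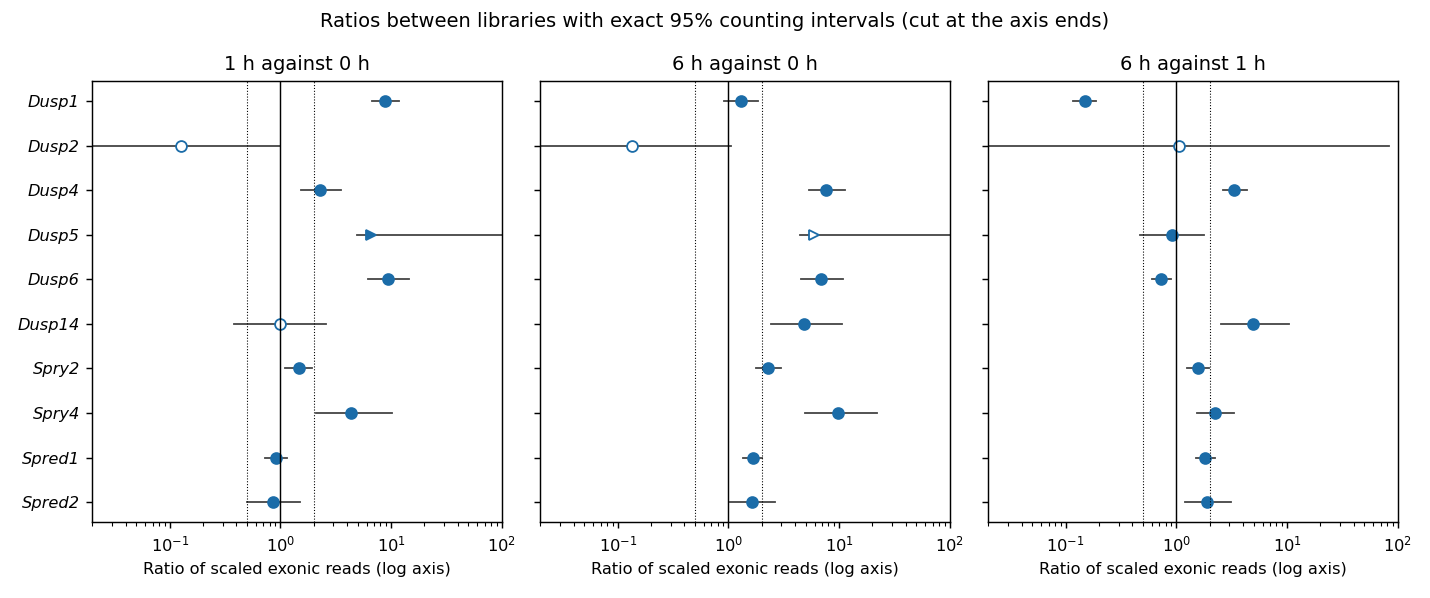
Ratios of TMM-scaled exonic reads (horizontal log axis) with exact 95% counting intervals for 1 h against 0 h, 6 h against 0 h and 6 h against 1 h, 1 gene per row. Filled symbols have at least 20 reads in 1 of the 2 libraries, triangles are lower bounds against 0 reads, and dotted lines mark ratios of 0.5 and 2. Dusp1 lies at 8.81 in the left panel and at 0.148 in the right one, whereas Dusp4, Dusp14 and Spry4 lie above 2 in the right panel.

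The Sprouty genes encode membrane-associated inhibitors of receptor tyrosine kinase signalling, and both were highest at 6 h. Spry4 (chr18:38745919-38760922, minus strand) had 9, 44 and 93 exonic reads at 0, 1 and 6 h, or 4.02, 17.5 and 39.2 RPM. Its ratio was 4.36 (2.10 to 10.2) for 1 h against 0 h, 9.77 (4.93 to 22) for 6 h against 0 h and 2.24 (1.55 to 3.29) for 6 h against 1 h. The 6 h ratio to 0 h was the highest of the 8 genes with enough reads and the 28th of all 10095. It rests on 9 reads at 0 h, and its interval overlaps those of Dusp4, Dusp6 and Dusp14. Most Spry4 reads were in the 3′ untranslated region, which took 6, 34 and 78 reads at 0, 1 and 6 h, while the coding sequence took 2, 8 and 7. This region is 3559 bases long in GRCm38, and the exons counted in mm9 sum to 4590 bp. These lengths come from different annotations, and the region's share of reads cannot be told apart from its length. The coding counts are too low to show a course of their own.

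Spry2 (chr14:106291732-106296036, minus strand) had the higher exonic coverage of the pair at every time and the smaller ratios against 0 h. It had 82, 134 and 199 exonic reads at 0, 1 and 6 h, or 36.6, 53.3 and 84.0 RPM. Its ratio was 1.46 (1.10 to 1.94) for 1 h against 0 h, which did not pass the size rule, and 2.29 (1.77 to 3.01) for 6 h against 0 h, which did. Its coding sequence took most reads, with 56, 99 and 152 at 0, 1 and 6 h, against 13, 16 and 31 in the 3′ untranslated region. These counts were not corrected for the length of each part, which differs between Spry2 and Spry4. A further 26, 24 and 41 reads lay in the 500 bp downstream of its annotated end.

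Spred1 and Spred2 carry an EVH1 domain beside the Sprouty domain, and Spred1 brings the Ras GTPase-activating protein neurofibromin to the plasma membrane. Neither passed the size rule in any comparison. Spred1 (chr2:116947186-117005073, plus strand) had 163, 167 and 286 exonic reads at 0, 1 and 6 h, with ratios of 0.914 (0.732 to 1.14) for 1 h against 0 h and 1.66 (1.36 to 2.02) for 6 h against 0 h. Spred2 (chr11:19824445-19922600, plus strand; 55.3% of its exonic length takes unique reads) had 30, 29 and 52, with ratios of 0.862 (0.499 to 1.49) and 1.64 (1.03 to 2.66). The 6 h intervals of both lay above 1 while their ratios stayed under 2. Against 1 h, the 6 h ratios were 1.82 (1.5 to 2.21) for Spred1 and 1.90 (1.18 to 3.11) for Spred2.

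**Figure D3:**
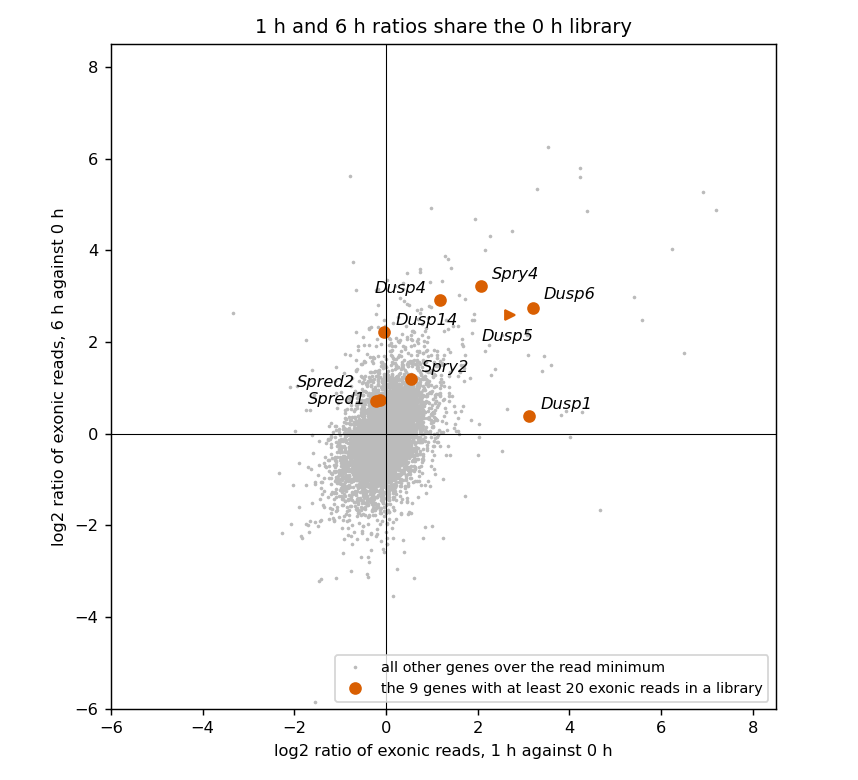
Log2 ratios of exonic reads at 1 h (horizontal) and 6 h (vertical), each against the same 0 h library, for 9 of the 10 genes (orange) and all other genes with at least 20 reads in a library (grey, with a pseudocount of 0.5 reads). The Dusp5 triangle is a lower bound on both axes. Dusp1 lies far to the right and near 0 on the vertical axis, Dusp14 near 0 on the horizontal axis and at 2.21 on the vertical one, and Dusp6 is far from 0 on both.

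Levels of different genes were set side by side by the authors' exonic coverage, the read bases per base of exon scaled to 10000000 mapped reads and corrected for mappability. At 0 h the order was led by Spry2 (2.22, counting interval 1.76 to 2.75) and Spred1 (2.17, 1.85 to 2.53), whose intervals overlap, followed by Dusp1 (1.22, 0.929 to 1.58) and Spred2 (0.735, 0.496 to 1.05), which overlap each other. Dusp4 (0.556), Dusp6 (0.365), Dusp14 (0.308) and Dusp2 (0.172) followed, each with an interval that overlaps that of its neighbour, then Spry4 (0.0772), and Dusp5 was listed at 0. At 1 h Dusp1 led with 12.5 (11.5 to 13.6), above Dusp6 at 4.06 (3.59 to 4.57), Spry2 at 3.76 (3.15 to 4.46) and Spred1 at 2.36 (2.01 to 2.74). Among neighbours in this order of 4, the intervals of Dusp6 and Spry2 overlap and the others do not. Dusp4 stood at 1.51, Dusp5 at 0.814, Spred2 at 0.748, Spry4 at 0.397, Dusp14 at 0.357 and Dusp2 at 0.0259. At 6 h Spry2 led with 5.56 (4.81 to 6.39), with Dusp4 at 4.75 (4.20 to 5.34) and Spred1 at 3.99 (3.54 to 4.48) overlapping their neighbours, and Dusp6 below them at 2.77 (2.39 to 3.19). Dusp1 at 1.73, Dusp14 at 1.65, Spred2 at 1.34, Spry4 at 0.836, Dusp5 at 0.701 and Dusp2 at 0.0258 completed the order. The lead thus passed between Spry2 and Spred1 at 0 h, Dusp1 at 1 h and Spry2 and Dusp4 at 6 h.

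Total RNA also contains unspliced transcripts, so intronic reads give a second view of each gene. Over all genes, intronic reads scaled with the exonic factors had a median log2 ratio of -0.66 for 1 h against 0 h, -0.19 for 6 h against 0 h and 0.40 for 6 h against 1 h, and the intronic share of all sense reads was 49.2%, 42.1% and 45.8% at 0, 1 and 6 h. Only 4, 5 and 5 of the 10 genes had enough intronic reads in these comparisons. Dusp4 passed as higher at 1 h and at 6 h against 0 h, where 2.59% of 8143 and 3.08% of 8236 genes did, and Spry4 passed as higher at 6 h against 1 h, where 15.5% of 7734 genes did, a call lost under each of 3 other scalings. None passed as lower, against 27.2%, 10.5% and 2.65% of all genes.

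Dusp4 had 10, 39 and 26 intronic reads at 0, 1 and 6 h. The ratio was 3.48 (1.71 to 7.81) for 1 h against 0 h and 2.46 (1.15 to 5.71) for 6 h against 0 h. Intronic reads at 6 h were 0.707 times those at 1 h (0.413 to 1.19), where exonic reads were 3.34 times as many. The intronic share of its sense reads was 22.7% (exact binomial 95% interval 11.5 to 37.8), 31.0% (23.0 to 39.8) and 8.67% (5.74 to 12.4) at 0, 1 and 6 h. The 6 h interval lies wholly below the 1 h interval, a contrast that does not depend on how libraries are scaled.

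Dusp1 had 6, 17 and 12 intronic reads and an intronic share of 9.38% (3.52 to 19.3), 2.88% (1.69 to 4.57) and 13.0% (6.93 to 21.7) at 0, 1 and 6 h. The 6 h interval lies above the 1 h interval, and the 0 h interval overlaps both. Dusp6 had 2, 17 and 15 intronic reads, and its share stayed between 5.88% and 7.39% in the 3 libraries. Spry2 had 19, 30 and 21 intronic reads, with shares of 18.8%, 18.3% (12.7 to 25.1) and 9.55% (6.01 to 14.2). Spry4 had 9, 9 and 20 intronic reads, a ratio of 2.36 (1.03 to 5.88) for 6 h against 1 h, and shares of 50% (26.0 to 74.0), 17.0% and 17.7%. Dusp14 had 1, 8 and 8 intronic reads, equal at 1 h and 6 h, where its exonic reads were 11 and 51.

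In Spred2 introns held most of the sense reads. Over all genes the intronic share was 49.2%, 42.1% and 45.8% at 0, 1 and 6 h, and Spred1 exceeded it only at 1 h. Spred1 had 139, 227 and 220 intronic reads at 0, 1 and 6 h, with ratios of 1.46 (1.17 to 1.81) for 1 h and 1.5 (1.20 to 1.86) for 6 h, each against 0 h. With scaling factors computed on intronic reads the log2 ratio for 1 h was 1.15 in place of 0.54, and Spred1 then passed as higher. Its intronic share was 46.0% (40.3 to 51.8), 57.6% (52.6 to 62.5) and 43.5% (39.1 to 47.9), with the 1 h interval above both others. Its exonic ratio for 1 h against 0 h was 0.914, so intronic and exonic reads of Spred1 differed in their course. The first intron took 71, 127 and 108 of these reads and the other introns together 68, 100 and 112. Spred2 had 138, 185 and 195 intronic reads and shares of 82.1%, 86.4% and 78.9%. Spred2 has 95284 bp of introns, and 55.3% of its exonic length takes unique reads, from which these shares cannot be told apart. Its first intron, of 73163 bp, took 111, 156 and 167, while its other introns held 27, 29 and 28.

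**Figure D4:**
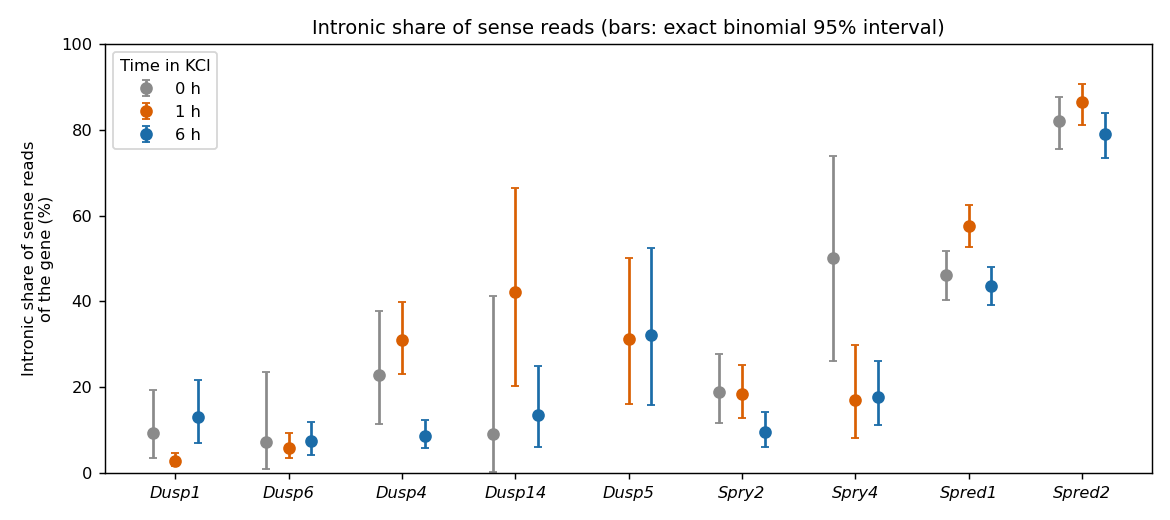
Intronic share of sense reads (vertical axis, percent) for 9 of the 10 genes at 0, 1 and 6 h in KCl with exact binomial 95% intervals. Dusp5 has no point at 0 h, where it had no read, and Dusp2 is not plotted because it had at most 7 sense reads. Dusp4 lies at 31.0% at 1 h and 8.67% at 6 h, and Spred2 lies between 78.9% and 86.4%.

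Reads along Dusp1 were spread differently at 0 h and 1 h. Exon 1 of Dusp1, with 505 bp or 26.2% of its exonic length, took 41.1% (28.1 to 55.0) of reads in single exons at 0 h, 14.9% (12.0 to 18.2) at 1 h and 19.2% (11.2 to 29.7) at 6 h. Exon 4 took 39.3% (26.5 to 53.2), 57.6% (53.4 to 61.8) and 50% (38.5 to 61.5). For both exons the 1 h interval does not overlap the 0 h interval. Reads across splice junctions numbered 2, 30 and 2 at 0, 1 and 6 h. In Dusp4 exon 4 took 66.7%, 75.9% and 78.8%, and in Dusp6 exon 1 took 12.5%, 25.7% and 21.9%, with intervals that overlap between times in both.

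**Figure D5:**
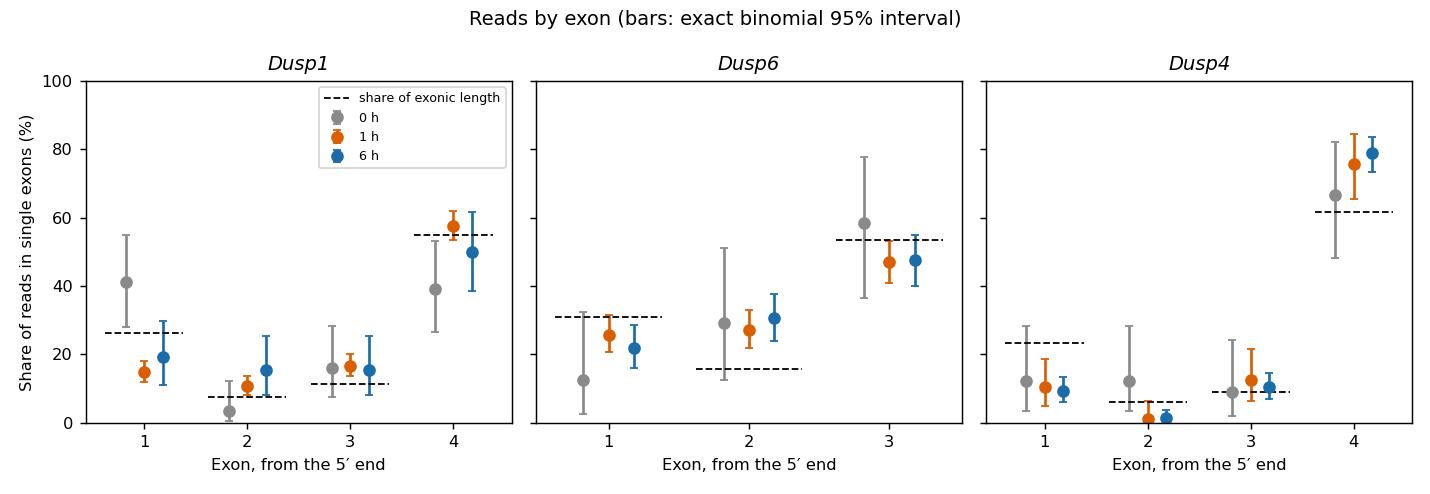
Share of reads that fall in single exons (vertical axis, percent) by exon of Dusp1, Dusp6 and Dusp4 at 0, 1 and 6 h, with exact binomial 95% intervals and dashed lines at each exon's share of exonic length. Exon 1 of Dusp1 lies at 41.1% at 0 h and 14.9% at 1 h and its exon 4 at 39.3% and 57.6%, and the intervals of Dusp6 and Dusp4 overlap between times in every exon.

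Other genes with the course of 3 of these genes were ranked by the Euclidean distance between pairs of log2 ratios (1 h and 6 h, each against 0 h), over 5747 genes with at least 100 exonic reads in a library. Among the genes nearest to Dusp1 (3.13 at 1 h, 0.38 at 6 h) were Egr1 at a distance of 0.799, Btg2 at 0.969, Arc at 1.15 and Cyr61 at 1.33. Egr1, an early transcription factor, had 89, 1517 and 133 exonic reads at 0, 1 and 6 h. Nearest to Dusp6 (3.20 and 2.75) were Cyr61 at 1.05, Trib1 at 1.29, Fbxo33 at 1.41, Sstr2 at 1.63 and Ifrd1 at 1.69, so that no gene lay within 1 log2 unit of it. Spry2 (0.54 and 1.19) had close company, with Fubp1, Pbef1, Ubn1, Osbpl8 and EG574403 at distances of 0.062 to 0.083. Each pair of ratios rests on the same 3 libraries, so likeness describes these libraries only.

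The rest of the pathway was followed through 6 lists of 167 genes. Over all genes, 1.58% passed as higher and 1.43% as lower at 1 h, and 4.92% and 5.42% at 6 h, each against 0 h. At such shares, a list with few calls or none need not differ from all genes. Of 15 other MAP kinase and ERK phosphatase genes, 13 had enough reads for 1 h against 0 h and none passed in either direction, with a median log2 ratio of 0.14. Dusp10 had the highest ratio at 1.57 (0.841 to 3.04) and Ptpn5, which encodes the neuronal phosphatase STEP, was 1.35-fold lower (0.942 to 1.93). At 6 h, 12 had enough reads (median 0.07), none passed as higher, and Dusp19 passed as lower, 2.97-fold below 0 h (1.65 to 5.64), with 45, 54 and 16 reads at 0, 1 and 6 h. Dusp3 had the highest 6 h ratio at 1.98 (1.46 to 2.70), just short of the threshold.

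Of 25 other inhibitors at the level of the receptor or Ras, 18 had enough reads in each comparison with 0 h, with median log2 ratios of -0.03 at 1 h and 0.19 at 6 h. Spry1 passed as higher at 1 h, with 13, 34 and 28 exonic reads at 0, 1 and 6 h and a ratio of 2.33 (1.20 to 4.82), and Rasa2 had the lowest ratio, 1.72-fold lower than at 0 h (1.29 to 2.31). At 6 h, 3 passed as higher. Spred3, the third Spred gene, had 8, 10 and 26 reads and a ratio of 3.07 (1.35 to 7.85). Errfi1, an inhibitor of the EGF receptor, had 75, 160 and 171 reads and a ratio of 2.16 (1.63 to 2.87), and Spry1 had a ratio of 2.04 (1.02 to 4.28). Rasa3, a Ras GTPase-activating protein, was 2.35-fold lower at 6 h (1.85 to 3.02), with 218, 249 and 98 reads.

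In the kinase cascade itself, as over all genes, few genes passed. Of 37 genes of the Ras, Raf, MEK and ERK list, 35 had enough reads at 1 h and none passed in either direction, with a median log2 ratio of 0.00. The ratios ran from Ksr2, 1.92-fold lower (1.25 to 3.01), to Rap1b at 1.62 (1.36 to 1.94). At 6 h, of 34 genes (median 0.12), the adaptor Shc3 at 2.07 (1.46 to 2.96) was among those that passed as higher, and the adaptor Frs3 was 2.64-fold lower (1.73 to 4.12). In the JNK and p38 arms, with 28 genes, none of 24 with enough reads passed at 1 h (median -0.05). The ratios ran from Mapk10, 1.32-fold lower (1.19 to 1.47), to Mapkapk2 at 1.2 (0.827 to 1.75). At 6 h (median 0.05) Map3k5, a stress-activated kinase, passed as higher at 3.82 (2.52 to 5.94) while Map2k6 was lowest, 1.99-fold lower (1.20 to 3.37).

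Among 34 receptor tyrosine kinases and ligands, 22 had enough reads. None passed at 1 h (median log2 ratio -0.19), with ratios from Fgfr1, 1.83-fold lower (1.30 to 2.61), to Nrg2 (LOC100042150 in the files) at 1.78 (0.969 to 3.40). At 6 h (median 0.16) Igf1, insulin-like growth factor 1, was 4.14 times its 0 h level (3.17 to 5.48) with 68, 94 and 298 reads. The receptor gene Met had a ratio of 2.58 (1.81 to 3.73) and the ligand gene Nrg1 one of 2.18 (1.10 to 4.56). Pdgfra, also an oligodendrocyte precursor marker, was 2.21-fold lower (1.52 to 3.26).

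Transcription factors that respond to ERK were the list with most calls. Of 22 with enough reads at 1 h, 12 passed as higher, where 1.58% of all genes did, and none as lower. The median log2 ratio of the 22 was 1.51, over genes of which some, such as Egr2 with 3 reads at 0 h and 352 at 1 h, met the read minimum in the 1 h library alone. The highest ratios were those of Fosb at 170 (58.0 to 828), Fos at 123 (80.4 to 199), Egr2 at 105 (35.5 to 510) and Junb at 49.8 (28.9 to 94.0), and the lowest was Elk4, 1.31-fold lower (0.664 to 2.60). Egr3, Klf4, Egr1, Egr4, Ier2, Fosl2, Srf and Jun made up the other 8, from 18.7 for Egr3 to 2.64 for Jun, which overlaps another gene on the same strand. Srf, which encodes the factor that binds CArG boxes, had 56, 194 and 151 reads at 0, 1 and 6 h. At 6 h, 9 of 18 passed as higher than at 0 h, where 4.92% of all genes did, and none as lower, with a median of 0.97. Fos had the highest ratio at 39.5 (25.7 to 64.1), followed by Fosb at 34.4, Fosl2 at 21.5 and Junb at 5.75. Ets2, Srf, Elk3, Mef2c and Etv5 passed with ratios from 2.15 to 2.63, and Etv4 had the lowest ratio, 1.61-fold lower (0.901 to 2.94).

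Against 1 h, 10 of these 22 factors passed as lower at 6 h, where 4.63% of all genes did, the direction taken by Dusp1. Another 4 passed as higher (Elk3, Ets2, Fosl2 and Mef2c), where 4.17% of all genes did, the direction taken by Dusp4, Dusp14 and Spry4. Over all 6 lists, 13 of 134 genes with enough reads passed as higher at 1 h, 12 of them in this list of factors, and none as lower. At 6 h, 18 of 128 passed as higher than at 0 h, 9 of them in this list, and 4 as lower. The pooled counts thus rest largely on 1 list, and the lists were chosen with earlier results of these data known.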

How the data were processed

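RNA of MGE-derived neurons was measured in 3 libraries, 1 per time. Per the labels, total RNA was depleted of ribosomal RNA, ligated directionally, amplified by PCR and sequenced on an ABi SOLiD instrument. Per the deposited counting logs, 35 bp reads with a unique place in the genome (mm9 in the submitters' processing notes) or in a RefSeq splice library and no more than 3 mismatches were kept, repeats included, by an aligner not given in the sources used here. Whole reads make up the authors' deposited counts per gene, strand, exon and intron. The authors' deposited coverage signal is read bases per base, scaled to 10000000 mapped reads.

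Counts of exonic reads were put on a common scale by TMM factors (edgeR 4.0.16, R 4.3.3; size factors of DESeq2 1.42.0 as an alternative). Intronic counts used the same factors. Ratios have exact Clopper-Pearson 95% intervals (scipy 1.17.1, Python 3.11.15), which cover counting error of reads only. They treat each read as independent, and PCR copies are not independent molecules, so such copies would make the intervals too narrow. Ratios against 0 reads are bounds at 3 reads, and log2 values use a pseudocount of 0.5 reads. Promoter and 3′ untranslated sequences come from GRCm38 tables and share no coordinates with the mm9 counts. Of 168 list entries 166 were matched by symbol and 1 by identifier, and 1 was not analysed here. Named list genes are those that passed the size rule and the highest and lowest ratio of each list, and the nearest patterns are the first 5 by distance, except for 2 genes that are not reported here. The members and lists were chosen with earlier results of these data known.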

Additional observations from a re-analysis of the deposited data

Results flagged for a closer look

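Sense reads in the 500 bp downstream of the annotated end of Dusp4, a region outside every comparison above, numbered 4, 11 and 49 at 0, 1 and 6 h. The 6 h library, with 49 reads, was 11.6 times the 0 h library after scaling (95% counting interval 4.25 to 44.2) and 4.72 times the 1 h library (2.42 to 10.1). The exonic ratio of Dusp4 for 6 h against 0 h was 7.62. This was drawn out because the downstream reads at 6 h exceeded the 0 h control beyond counting error.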

How the results depend on the processing

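Read minima, fold thresholds and 4 other ways of scaling were tried. Of 86 recomputed counts of genes, 77 stayed within 1.5 times the reported count, and all 148 recomputed exonic log2 ratios of the 10 genes stayed within their counting intervals. With a minimum of 50 reads, 3 of the 10 genes (Dusp1, Dusp4 and Dusp6) passed as higher at 1 h against 0 h in place of 5, and with no minimum 1 gene (Dusp2) passed as lower in place of 0. With a fold threshold of 1.5, 6 genes in place of 3 passed as higher at 6 h against 1 h, which adds Spry2, Spred1 and Spred2. Intronic counts depended on scaling. Under TMM factors of intronic reads, 3 genes in place of 1 passed as higher at 1 h against 0 h (Dusp4, Spry2 and Spred1). For 6 h against 0 h 2 genes in place of 1 passed (Dusp4 and Spry4) under those factors, and 2 under mapped reads. For 6 h against 1 h the count was 0 in place of 1 under total intronic reads, under intronic TMM factors and under mapped reads. Of 90 intronic log2 ratios 8 left their counting interval, all of Spred1 and Spred2, which had the most intronic reads of the 10 genes. A change of scaling shifts the log2 ratios of all genes alike. The median intronic log2 ratio of all genes at 1 h against 0 h was -0.66 with exonic TMM factors and -0.05 with intronic ones. The cause of that shift was not tested.

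The median log2 ratio of all genes against 0 h was 0.25 at 1 h and 0.15 at 6 h with libraries scaled to mapped reads, and 0.01 and 0.00 with TMM. Among genes that passed, the share that was higher at 1 h against 0 h was 52.5% with TMM, 85.1% with mapped reads and 84.6% with the authors' coverage. For 6 h against 0 h it was 47.6%, against 64.5% and 63.3%, and 35.6% with total exonic reads. For 6 h against 1 h it was 47.4%, against 36.0%, 36.3% and 35.4%. The alternatives for the pathway lists were chosen after seeing the data, and there the counts stayed within 1.5 times. The coverage gives no ratio for Dusp5 against 0 h, where it is listed at 0.

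No paired analysis was possible because each time has 1 library, and for the same reason no replicate was left out. Depth limits Dusp2, Dusp5, Dusp14 and Spry4 most, and the intronic reads of all genes but Spred1 and Spred2.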
